A study of Mus musculus with 16 samples.

Results

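The genes described here are the 6 members of the PIKK (phosphatidylinositol 3-kinase-related kinase) family, Trrap, Atm, Atr, Prkdc, Mtor and Smg1, and the 3 genes of the TTT cochaperone, Telo2, Tti1 and Tti2. They were chosen by name, as the gene deleted in this model, its relatives and the cochaperone that serves them, and are 9 of the 53801 genes in the count table. RNA was sequenced from whole cortex and whole striatum of mice at an age of 10 days, with 4 libraries in each of 4 groups, 16 libraries in all. Trrap-FBΔ mice were Trrap Fl/Fl;Camk2-Cre, with both alleles floxed. Control mice were Trrap Fl/+;Camk2-Cre, so they carried the same Cre transgene and 1 floxed allele. The strain was C57BL6/J-129sv. Camk2-Cre was used to delete Trrap in forebrain glutamatergic neurons, and whole tissue also holds cells in which this promoter is not active. The methods name the line as a Camk2a-cre/ERT2 transgene, and any tamoxifen treatment of these mice is not given in the sources used here. Both tissues came from 7 of the 9 mice, and the other two gave 1 tissue each.

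PIKKs are very large proteins that share a kinase domain at their C-terminal end. Most of them phosphorylate other proteins in response to DNA damage, nutrients or faulty transcripts, whereas Trrap has lost the residues for catalysis and acts as a scaffold of histone acetyltransferase complexes. Newly made PIKKs are folded and assembled with the help of TTT, which hands them to HSP90 together with the R2TP complex. The genotype comparison therefore concerns 1 member that was deleted and 8 that are encoded by intact genes.

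Counts on genes were between 28743866 and 48761429 per library. The females numbered 2 of 4 in control cortex, 3 of 4 in Trrap-FBΔ cortex, 1 of 4 in control striatum and 3 of 4 in Trrap-FBΔ striatum. Every one of the 9 genes was well covered, with 471 to 11876 reads per library, and the coefficient of variation within a group ran from 1.94% to 12.1%. The tissue labels were checked against marker genes, as summed CPM (counts scaled by library size with TMM over the 16 libraries). The 6 excitatory neuron markers summed to 3332 to 4105 CPM in the 8 cortex libraries and to 669 to 1709 CPM in the 8 striatum libraries, so the tissues did not overlap. The 8 striatal projection neuron markers did not separate them: control striatum held 217 to 1117 CPM and control cortex 254 to 695 CPM, and in control mice 1 of the 8 was higher in striatum by edgeR's quasi-likelihood test (adjusted p under 0.05).

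The DNA just before a RefSeq start of transcription is printed for 3 of these genes. They are Trrap, the deleted gene, and Atr and Tti1, the members that rose in Trrap-FBΔ tissue and have an entry in the promoter table. The sequences are from RefSeq on GRCm38.p6, in the direction of each gene, and end at the base before the start of transcription. They begin no farther than 250 bases before it and stop short of exons of protein-coding transcripts. Capitals mark GC boxes, the letters GGGCGG on either strand, to which Sp1, the transcription factor that the study examined, is known to bind.
Trrap (chr5:144768722-144768793, plus strand): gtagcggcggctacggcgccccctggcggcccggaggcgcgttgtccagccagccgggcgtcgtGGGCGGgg
Atr (chr9:95857347-95857596, plus strand): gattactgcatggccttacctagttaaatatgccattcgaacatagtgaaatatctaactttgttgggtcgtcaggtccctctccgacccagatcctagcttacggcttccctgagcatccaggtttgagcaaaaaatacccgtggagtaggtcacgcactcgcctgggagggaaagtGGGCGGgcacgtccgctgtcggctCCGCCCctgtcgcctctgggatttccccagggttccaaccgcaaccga
Tti1 (chr2:158028435-158028496, minus strand): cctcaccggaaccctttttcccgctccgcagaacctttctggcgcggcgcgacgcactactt

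The Trrap stretch lies inside the annotated span of Trrap (chr5:144767732-144859778), before a RefSeq start within it. It is 72 bases long because an exon of a protein-coding transcript lies upstream. The Tti1 stretch is only 62 bases long because the first exon of Rprd1b, on the opposite strand, begins there. Over the whole 250 bases before the start, Trrap had 1 GC box, Atm 1, Atr 2, Mtor 2 and Smg1 5, whereas Telo2, in both of its windows, and Tti1 had 0. Of all 32851 windows of 250 bases in the table, 32.7% held at least 1, with matches on both strands and overlapping matches counted. Prkdc and Tti2 are named only. A match is a string of letters, and binding was not measured in these libraries.

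Within the cortex, 4 of the 9 genes rose in Trrap-FBΔ mice and 0 fell. Prkdc, Tti1, Tti2 and Atr rose by 16.7% to 33.6%, and none of them had groups that overlapped. How many of all genes tested lacked overlap was not counted, so this is not shown to be particular to them. Trrap itself changed by -11.9%, which did not pass the threshold. Of the 18268 genes tested in the cortex, 15.7% were called higher and 17.6% lower (33.3% in either direction). The median log2 fold change of the 9 genes was 0.13, against 0.0010 over all genes tested.

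**Figure D1:**
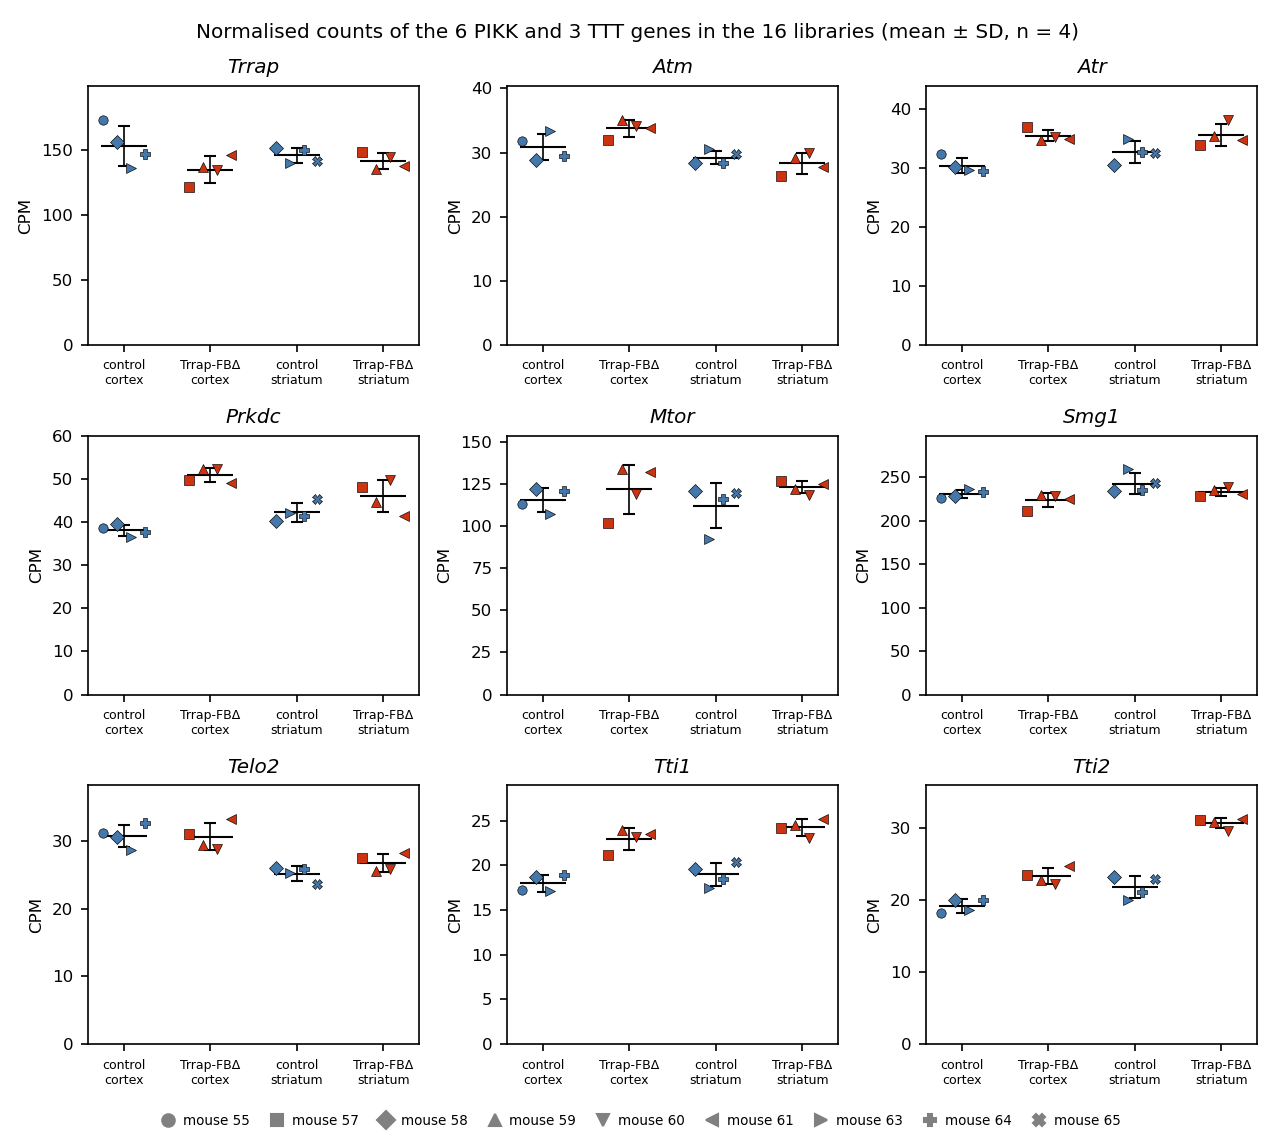
Normalised counts (CPM, y axis) of the 9 genes in each of the 16 libraries, by tissue and genotype; symbols mark the mouse, and the bar and whiskers are the mean ± SD of 4 libraries. In cortex the Trrap-FBΔ libraries of Atr, Prkdc, Tti1 and Tti2 lie above every control library, and in striatum those of Tti1 and Tti2 do.

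The deleted gene was checked first. Trrap (chr5:144767732-144859778, plus strand) was at 173, 156, 136 and 147 CPM in the control cortex of mice 55, 58, 63 and 64, and at 121, 137, 135 and 146 CPM in the Trrap-FBΔ cortex of mice 57, 59, 60 and 61. The groups overlapped: the control library of mouse 63 lay below that of Trrap-FBΔ mouse 61. The log2 fold change in cortex was -0.18 (SE 0.075, 95% interval -0.35 to -0.018), with a p of 0.033 that became 0.083 after Benjamini-Hochberg adjustment by edgeR. An exact permutation test of the means, 2-sided, gave p = 0.11. The adjusted p was 0.034 without control mouse 63 (log2 fold change -0.23), 0.046 when low counts were kept and 0.047 when both tissues were fitted together. In the other direction, it was 0.20 without control mouse 55 (log2 fold change -0.12), 0.21 without Trrap-FBΔ mouse 57 (-0.13) and 0.13 with upper-quartile normalization (-0.16). The striatal Trrap level was 151 CPM in control mouse 58, 140 in mouse 63, 150 in mouse 64 and 142 in mouse 65, against 148 CPM in Trrap-FBΔ mouse 57, 135 in mouse 59, 145 in mouse 60 and 138 in mouse 61. There too the groups overlapped, and the log2 fold change was -0.044 (95% interval -0.15 to 0.062, adjusted p = 0.52). The lower bounds of these intervals correspond to changes of -21.4% in cortex and -9.86% in striatum. The study described the deletion as efficient at this age, citing protein blots of the forebrain and qPCR. Counts over the whole gene do not separate transcripts of the floxed and the deleted allele. Control mice also carried the Cre and 1 floxed allele, so they are no reference without deletion. In whole tissue, fewer cells of a type and less RNA per cell cannot be told apart.

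The kinases of the DNA damage response differed in size of effect. Prkdc (chr16:15637866-15842235, plus strand), the catalytic subunit of DNA-PK, which acts in end joining of broken DNA, showed the largest log2 fold change of the 9 genes in cortex. Its level was 38.6, 39.6, 36.5 and 37.6 CPM in control mice 55, 58, 63 and 64, and 49.9, 52.3, 52.3 and 49.2 CPM in Trrap-FBΔ mice 57, 59, 60 and 61. All 4 Trrap-FBΔ libraries lay above all 4 controls, with a log2 fold change of 0.42 (SE 0.049, adjusted p = 0.00013). The striatal level of Prkdc was 40.2, 42.2, 41.5 and 45.5 CPM in control mice 58, 63, 64 and 65, against 48.2, 44.8, 49.9 and 41.6 CPM in Trrap-FBΔ mice 57, 59, 60 and 61. The Trrap-FBΔ library of mouse 61 lay among the controls, and the log2 fold change was 0.12 (95% interval -0.024 to 0.27, adjusted p = 0.19). A processed pseudogene, Gm49511, overlaps Prkdc on the same strand, so the count of Prkdc is uncertain where they overlap.

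Atr (chr9:95857597-95951781, plus strand) encodes the kinase that answers stalled replication and single-stranded DNA. It was at 32.3, 30.1, 29.7 and 29.5 CPM in control cortex of mice 55, 58, 63 and 64, and at 36.9, 34.8, 35.3 and 34.9 CPM in Trrap-FBΔ cortex of mice 57, 59, 60 and 61. The groups did not overlap in cortex, with a log2 fold change of 0.22 (SE 0.053, adjusted p = 0.0082). In striatum, Atr was at 30.6 to 35.0 CPM in controls and 33.8 to 38.2 CPM in Trrap-FBΔ mice, with a log2 fold change of 0.12 (95% interval -0.010 to 0.25, adjusted p = 0.15). Antisense genes overlap Atr, and the counting was strand-specific. Atm (chr9:53439149-53536740, minus strand), the kinase activated by double-strand breaks, was at 28.9 to 33.3 CPM in control cortex and 32.0 to 35.1 CPM in Trrap-FBΔ cortex. The groups overlapped, and its log2 fold change was 0.13 (95% interval -0.0052 to 0.26, adjusted p = 0.13) in cortex and -0.047 (95% interval -0.17 to 0.079, adjusted p = 0.57) in striatum.

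The growth and RNA surveillance kinases did not pass the test in either tissue. Mtor (chr4:148448611-148557683, plus strand), the kinase of the mTOR complexes that couple nutrients to growth, was at 107 to 122 CPM in control cortex and 102 to 134 CPM in Trrap-FBΔ cortex. Its log2 fold change was 0.074 (95% interval -0.098 to 0.25) in cortex and 0.14 (95% interval -0.037 to 0.31) in striatum. Leaving out single libraries gave 0.035 to 0.16 in cortex, with the lowest values (0.038, 0.035 and 0.038) without control mouse 63 or Trrap-FBΔ mouse 59 or 61 and the highest without Trrap-FBΔ mouse 57, and none passed. In striatum the value was 0.054 without control mouse 63 (adjusted p = 0.34), and with sex as a covariate it was 0.21 (adjusted p = 0.11). The coefficient of variation of Mtor was 12.1% in Trrap-FBΔ cortex and 11.9% in control striatum. Smg1 (chr7:118131308-118243670, minus strand), which phosphorylates Upf1 in nonsense-mediated decay, was at 227 to 237 CPM in control cortex and 212 to 230 CPM in Trrap-FBΔ cortex. Its coefficient of variation was 1.94% in control cortex and between 1.996% and 4.79% in the other groups. Its log2 fold change was -0.047 (95% interval -0.14 to 0.049) in cortex and -0.058 (95% interval -0.16 to 0.048) in striatum, so the intervals extend from -10.8% to 3.43%.

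Of the TTT genes, Tti1 and Tti2 rose in both tissues. In striatum these were the 2 genes of the 9 that passed, both higher, where, of the 18872 genes tested, 14.4% were called higher and 15.8% lower (30.2% in either direction). Tti1 (chr2:157981803-158028433, minus strand), a subunit built of helical repeats, was at 17.2, 18.8, 17.2 and 18.9 CPM in control cortex of mice 55, 58, 63 and 64, and at 21.2, 23.95, 23.2 and 23.5 CPM in Trrap-FBΔ cortex of mice 57, 59, 60 and 61. In striatum its level was 19.6, 17.5, 18.5 and 20.4 CPM in control mice 58, 63, 64 and 65, against 24.2, 24.6, 23.0 and 25.2 CPM in Trrap-FBΔ mice 57, 59, 60 and 61. Every Trrap-FBΔ library exceeded every control of its tissue. The log2 fold change of Tti1 was 0.35 (SE 0.063, adjusted p = 0.0017) in cortex and 0.35 (SE 0.062, adjusted p = 0.0025) in striatum.

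Tti2 (chr8:31150315-31164702, plus strand), a partner of Tti1 within TTT, was at 18.1, 20.0, 18.6 and 20.1 CPM in control cortex of mice 55, 58, 63 and 64, and at 23.5, 22.8, 22.2 and 24.8 CPM in Trrap-FBΔ cortex of mice 57, 59, 60 and 61. In striatum the control level of Tti2 was 23.2, 20.0, 21.1 and 22.8 CPM in mice 58, 63, 64 and 65, and the Trrap-FBΔ level was 31.0, 30.8, 29.6 and 31.2 CPM in mice 57, 59, 60 and 61. Neither pair of groups overlapped. The log2 fold change of Tti2 was 0.28 (SE 0.060, adjusted p = 0.0048) in cortex and 0.49 (SE 0.059, adjusted p = 0.00040) in striatum. Telo2 (chr17:25099570-25115967, minus strand), the TTT subunit that contacts the R2TP complex, was at 28.6 to 32.6 CPM in control cortex and 28.8 to 33.3 CPM in Trrap-FBΔ cortex. It was at 23.6 to 26.1 CPM in control striatum and 25.6 to 28.3 CPM in Trrap-FBΔ striatum. Its log2 fold change was -0.0063 (95% interval -0.14 to 0.13) in cortex and 0.091 (95% interval -0.034 to 0.22) in striatum, and neither passed. For each of the 4 genes called in cortex and the 2 in striatum, the exact permutation test gave p = 0.029, 2-sided. That is the smallest p that 4 libraries against 4 allow, and it follows whenever the groups do not overlap. The genes were picked by edgeR's call on the same libraries, so this p adds no separate support.

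**Figure D2:**
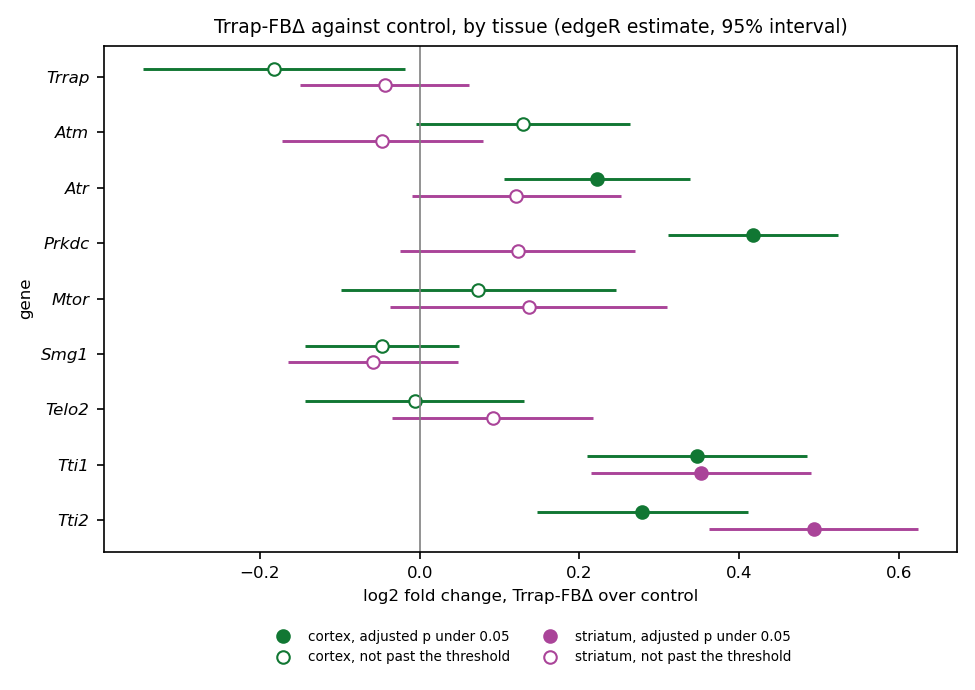
The log2 fold change of Trrap-FBΔ over control (x axis) for each of the 9 genes (y axis) in cortex and striatum, as edgeR's estimate with its 95% interval; filled points have an adjusted p under 0.05. The 6 filled points all lie to the right of 0, with Prkdc at 0.42 in cortex and Tti2 at 0.49 in striatum farthest from it.

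The effect of the genotype was then compared between the tissues over all 16 libraries, in a fit without pairing by mouse. None of the 9 genes passed with edgeR (0 of 9, where 0.437% of 19438 genes did), and 3, namely Prkdc, Tti2 and Atm, had an unadjusted p under 0.05. The effect on Prkdc was smaller in striatum than in cortex by 0.30 on the log2 scale (difference -0.30, SE 0.080, adjusted p = 0.11). DESeq2 gave Prkdc an adjusted p of 0.035 for the same difference and called 1 of the 9, while limma-voom called 0. For Tti2 the effect was larger in striatum by 0.21 (SE 0.081, adjusted p = 0.28), and for Atm the difference was -0.18 (SE 0.080, adjusted p = 0.39). For Trrap the difference was 0.14 (95% interval -0.061 to 0.34) and for Tti1 0.0047 (95% interval -0.17 to 0.18). Atr and Prkdc, which passed in cortex and not in striatum, are therefore not shown by edgeR to respond differently in the tissues.

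Marker RNA of several other cell types differed between the genotypes. Of all genes tested, 15.7% were called higher and 17.6% lower in cortex, and 14.4% and 15.8% in striatum. In cortex, 6 of 6 microglia markers were lower in Trrap-FBΔ mice, with sums of 342 to 388 CPM in controls and 247 to 313 CPM in Trrap-FBΔ mice. The 7 oligodendrocyte lineage markers were all lower in cortex (1713 to 2825 against 1274 to 1869 CPM, with overlapping sums), as were 4 of 5 endothelial markers (148 to 181 against 139 to 145 CPM) and 6 of 7 markers of proliferating cells (87.4 to 99.3 against 60.9 to 65.3 CPM). In striatum, 5 of 6 microglia markers (279 to 337 against 232 to 248 CPM), 6 of 7 proliferation markers (98.7 to 122 against 67.1 to 75.7 CPM), 3 of 7 oligodendrocyte lineage markers (2952 to 8121 against 3489 to 5981 CPM) and 1 of 5 endothelial markers (135 to 188 against 131 to 159 CPM) were lower. Excitatory neuron markers fell for 1 of 6 genes in cortex (3332 to 4105 against 3661 to 3777 CPM) and for 5 of 6 in striatum (996 to 1709 against 669 to 1052 CPM). Of 6 astrocyte markers, 2 were higher and 2 lower in cortex (1811 to 1911 against 1835 to 2081 CPM), and 2 were higher in striatum (2106 to 2313 against 2187 to 2315 CPM). The 5 choroid plexus markers (158 to 485 against 121 to 427 CPM in cortex, 117 to 559 against 277 to 735 CPM in striatum) and the 8 striatal projection neuron markers (254 to 695 against 310 to 418 CPM in cortex, 217 to 1117 against 331 to 542 CPM in striatum) had 0 genes past the threshold in either tissue. No marker of any list was undetected. Their part in the values of the PIKK and TTT genes was not tested.

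The genes around the PIKKs were read from 7 lists with 88 genes, all of which were tested. In cortex 18 rose and 12 fell, or 34.1% of them against 33.3% of all genes, and in striatum 16 rose and 9 fell, or 28.4% against 30.2%. The lists as a whole thus changed about as often as other genes did. For the difference between tissues, 0 of the 88 passed.

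**Figure D3:**
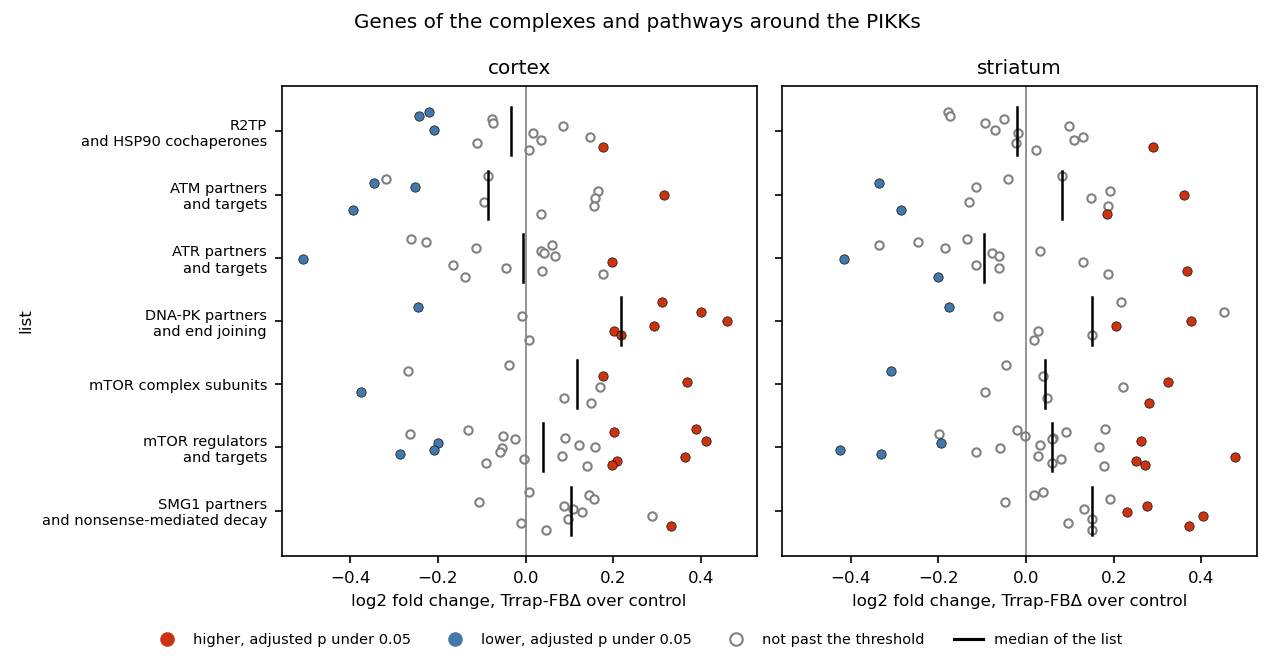
The log2 fold change of Trrap-FBΔ over control (x axis) for the 88 genes of the 7 lists (y axis), in cortex on the left and striatum on the right; each point is 1 gene, coloured where its adjusted p is under 0.05, and the black line is the median of the list. The end joining list (9 genes) in cortex has 6 higher and 1 lower. The nonsense-mediated decay list (12 genes) in striatum has 4 higher and 0 lower. Of all genes tested, 33.3% were called in cortex and 30.2% in striatum.

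The partners of TTT in folding went both ways in cortex. Of 12 genes of the R2TP and HSP90 list, 1 rose and 3 fell in cortex (median log2 fold change -0.034), and 1 rose and 0 fell in striatum (median -0.021). Among all genes tested, the called share was 33.3% in cortex and 30.2% in striatum, so the cortex count was near it. Uri1, a prefoldin-like protein linked to R2TP, rose from 61.02 ± 0.974 to 69.0 ± 2.11 CPM in cortex (mean ± SD, n = 4; log2 fold change 0.18, adjusted p = 0.0081) and from 63.3 ± 3.23 to 77.2 ± 3.24 CPM in striatum (0.29, adjusted p = 0.0026). The chaperones Hsp90aa1 and Hsp90ab1 fell in cortex, by 0.22 (adjusted p = 0.023) and 0.24 (adjusted p = 0.029) on the log2 scale. Hsp90aa1 was no longer called without the library of control mouse 55, 63 or 64 or Trrap-FBΔ mouse 57, 60 or 61 (adjusted p 0.051 to 0.064), and Hsp90ab1 without control mouse 58 or 64 or Trrap-FBΔ mouse 57 or 60 (0.061 to 0.082). Both have close copies in the genome, and only uniquely mapped reads were counted, so their levels are uncertain.

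The DNA-PK and end joining list was the one with the most calls for its size in cortex. Of its 9 genes, 6 rose and 1 fell in cortex (median 0.22), and 2 rose and 1 fell in striatum (median 0.15). Over all genes tested, 33.3% were called in cortex and 30.2% in striatum, so the striatal count was near that share. Poll, a DNA polymerase that fills gaps in end joining, rose from 5.92 ± 0.757 to 8.18 ± 0.494 CPM in cortex (log2 fold change 0.46, adjusted p = 0.0043) and from 6.28 ± 0.302 to 8.13 ± 0.512 CPM in striatum (0.38, adjusted p = 0.0055). Dclre1c, the nuclease Artemis, rose in cortex by 0.31 (adjusted p = 0.010). Lig4, the ligase of the pathway, went the other way, falling by 0.25 in cortex (adjusted p = 0.017) and by 0.17 in striatum (adjusted p = 0.036). The call of Lig4 in cortex was lost without control mouse 64 (0.059), and in striatum without any library but those of control mouse 63 and Trrap-FBΔ mouse 60 (0.059 to 0.11), with sex as a covariate (0.12), with upper-quartile normalization (0.065) and with no filter (0.13). Polm, a polymerase related to Poll, rose by 0.29 in cortex (adjusted p = 0.022), a call not run through the alternatives. In striatum Polm was higher by 0.21 (adjusted p = 0.0499). That striatal call was lost without any library but that of control mouse 63 (0.065 to 0.13). It was also lost with sex as a covariate (0.18), with no filter (0.13) and with DESeq2 (0.064).

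Of 11 ATM partners and targets, 1 rose and 3 fell in cortex (median -0.087), and 2 rose and 2 fell in striatum (median 0.082). H2afx, the histone variant that is phosphorylated around breaks, fell in cortex from 30.9 ± 0.901 to 24.3 ± 1.27 CPM (log2 fold change -0.35, adjusted p = 0.00088) and in striatum from 23.9 ± 1.12 to 18.9 ± 1.30 CPM (-0.34, adjusted p = 0.0041). Trp53, the p53 transcription factor, fell by 0.39 in cortex (adjusted p = 0.0019) and by 0.28 in striatum (adjusted p = 0.0098). Nbn, a subunit of the complex that recruits Atm to breaks, rose by 0.31 in cortex (adjusted p = 0.0020) and by 0.36 in striatum (adjusted p = 0.0018). Of 14 ATR partners and targets, 1 rose and 1 fell in cortex (median -0.0054), and 1 rose and 2 fell in striatum (median -0.096). Rad9a, part of the ring-shaped clamp that helps to activate Atr, fell by 0.51 in cortex (adjusted p = 0.0017) and by 0.41 in striatum (adjusted p = 0.011). Rpa1, which coats single-stranded DNA, rose by 0.20 in cortex (adjusted p = 0.016). In striatum Topbp1, an activator of Atr, fell by 0.20 (adjusted p = 0.0081), and Timeless, which protects replication forks, rose by 0.37 (adjusted p = 0.012).

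Of the 8 other subunits of the mTOR complexes, 2 rose and 1 fell in each tissue, with a median log2 fold change of 0.12 in cortex and 0.044 in striatum. Mlst8, present in both mTOR complexes, rose from 40.3 ± 2.39 to 52.1 ± 2.70 CPM in cortex (log2 fold change 0.37, adjusted p = 0.00068) and from 35.6 ± 2.30 to 44.5 ± 1.92 CPM in striatum (0.32, adjusted p = 0.0030). Mapkap1, of mTOR complex 2, rose by 0.18 in cortex (adjusted p = 0.0064). Prr5l, which binds that complex, fell in cortex by 0.38 (adjusted p = 0.028), but not past the threshold without control mouse 55 or 58 or Trrap-FBΔ mouse 59 or 60 (0.060 to 0.087), or with both tissues in one fit (0.16). In striatum Rptor, of mTOR complex 1, rose by 0.28 (adjusted p = 0.020), or 0.055 without Trrap-FBΔ mouse 57. Deptor, an inhibitor of Mtor, fell by 0.31 in striatum (adjusted p = 0.036), a call lost without any library but that of control mouse 63 (0.051 to 0.087), with sex as a covariate (0.17) and with both tissues in one fit (0.069).

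Of 22 regulators and targets of mTOR, 6 rose and 3 fell in cortex (median 0.039), and 4 rose and 3 fell in striatum (median 0.060). Nprl3, a subunit of the complex that restrains mTOR complex 1 when amino acids are short, rose from 30.2 ± 0.943 to 40.2 ± 1.79 CPM in cortex (log2 fold change 0.41, adjusted p = 0.00022) and from 28.5 ± 0.574 to 34.2 ± 1.06 CPM in striatum (0.26, adjusted p = 0.0029). Rragb, a Rag GTPase that brings mTOR complex 1 to the lysosome, fell from 91.1 ± 1.495 to 78.8 ± 1.42 CPM in cortex (-0.21, adjusted p = 0.0017) and from 124 ± 8.75 to 92.3 ± 2.25 CPM in striatum (-0.42, adjusted p = 0.00054). Rragd, another Rag GTPase, fell by 0.29 in cortex (adjusted p = 0.0015) and by 0.33 in striatum (adjusted p = 0.022). Tbc1d7, a subunit of the TSC complex, rose in both tissues. Its log2 fold change was 0.21 in cortex (adjusted p = 0.021) and 0.25 in striatum (adjusted p = 0.0046). Of the 12 genes of the nonsense-mediated decay list, 1 rose and 0 fell in cortex (median 0.10), and 4 rose and 0 fell in striatum (median 0.15). Upf3a rose from 46.7 ± 1.78 to 58.8 ± 3.83 CPM in cortex (0.33, adjusted p = 0.0013) and from 38.5 ± 1.47 to 49.8 ± 0.773 CPM in striatum (0.37, adjusted p = 0.00045). Smg9, a direct partner of Smg1, rose by 0.40 (adjusted p = 0.0025), and Smg6, the endonuclease of the pathway, by 0.28 (adjusted p = 0.010), both in striatum.

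Between the tissues, edgeR called Telo2 lower and Tti2 higher in striatum in both genotypes. It called Prkdc higher in control striatum and lower in Trrap-FBΔ striatum. This fit did not pair the tissues of a mouse. Both calls of Prkdc, and that of Tti2 in control mice, were lost in some of the alternatives. In control mice 2 of the 9 genes were higher in striatum and 1 lower, where 22.5% of 19438 genes were higher and 22% lower (44.5% in all). In Trrap-FBΔ mice 1 was higher and 3 lower, where 26.5% were higher and 25.9% lower (52.3% in all). The weak separation of the tissues by striatal projection neuron markers applies to these values, and its part in them was not tested.

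Telo2 was lower in control striatum (25.2 ± 1.11 CPM) than in control cortex (30.8 ± 1.66 CPM), with no overlap between the groups and a log2 fold change of -0.29 (SE 0.059, adjusted p = 0.00068). In Trrap-FBΔ mice Telo2 stood at 26.8 ± 1.32 CPM in striatum and 30.7 ± 1.98 CPM in cortex, again with no overlap (-0.19, SE 0.058, adjusted p = 0.010). With upper-quartile normalization the latter was no longer called (adjusted p = 0.092). Tti2 was higher in Trrap-FBΔ striatum than in Trrap-FBΔ cortex by 0.39 (SE 0.057, adjusted p = 1.7e-05), and these groups did not overlap. In control mice Tti2 was higher by 0.18 (SE 0.058, adjusted p = 0.017) with overlapping groups, and with the mouse as a replicate block the value was 0.13 (adjusted p = 0.075). That call for Tti2 was also lost without the cortex library of control mouse 55 or the striatum library of control mouse 58 or 65 (adjusted p 0.052 to 0.092).

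Prkdc in control mice was higher in striatum by 0.15 (SE 0.057, adjusted p = 0.038) with groups that did not overlap, but by 0.12 (adjusted p = 0.11) with the mouse as a replicate block, and DESeq2 did not call it (adjusted p = 0.053). In Trrap-FBΔ mice Prkdc was lower in striatum by 0.14 on the log2 scale (log2 fold change -0.14, SE 0.056, adjusted p = 0.043), with overlapping groups. Leaving out single libraries ended the control call for 10 of 16, namely the cortex libraries of mice 55, 63, 64, 60 and 61 and the striatum libraries of mice 63, 64, 65, 57 and 59 (adjusted p 0.053 to 0.18). It ended the Trrap-FBΔ call for 6, the cortex libraries of mice 57, 59 and 60 and the striatum libraries of mice 63, 59 and 61 (adjusted p 0.050 to 0.11). Atm was lower in striatum in Trrap-FBΔ mice, at 28.3 ± 1.60 against 33.8 ± 1.31 CPM (-0.26, SE 0.057, adjusted p = 0.0011), with no overlap. In control mice Atm differed by -0.079 (95% interval -0.20 to 0.042, adjusted p = 0.29). Trrap did not pass in either genotype, with log2 fold changes of -0.069 (95% interval -0.21 to 0.072) in control mice and 0.068 (95% interval -0.072 to 0.21) in Trrap-FBΔ mice. Atr, Mtor, Smg1 and Tti1 did not pass either, with log2 fold changes between -0.046 and 0.11 in control mice and between 0.0047 and 0.080 in Trrap-FBΔ mice. These values shift with the scaling: with upper-quartile normalization Smg1 (0.13, adjusted p = 0.017) and Tti1 (0.15, adjusted p = 0.029) were higher in Trrap-FBΔ striatum, Prkdc was at -0.069 there (adjusted p = 0.33), and in control mice Atr (0.15, adjusted p = 0.035) and Smg1 (0.12, adjusted p = 0.037) were called higher.

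**Figure D4:**
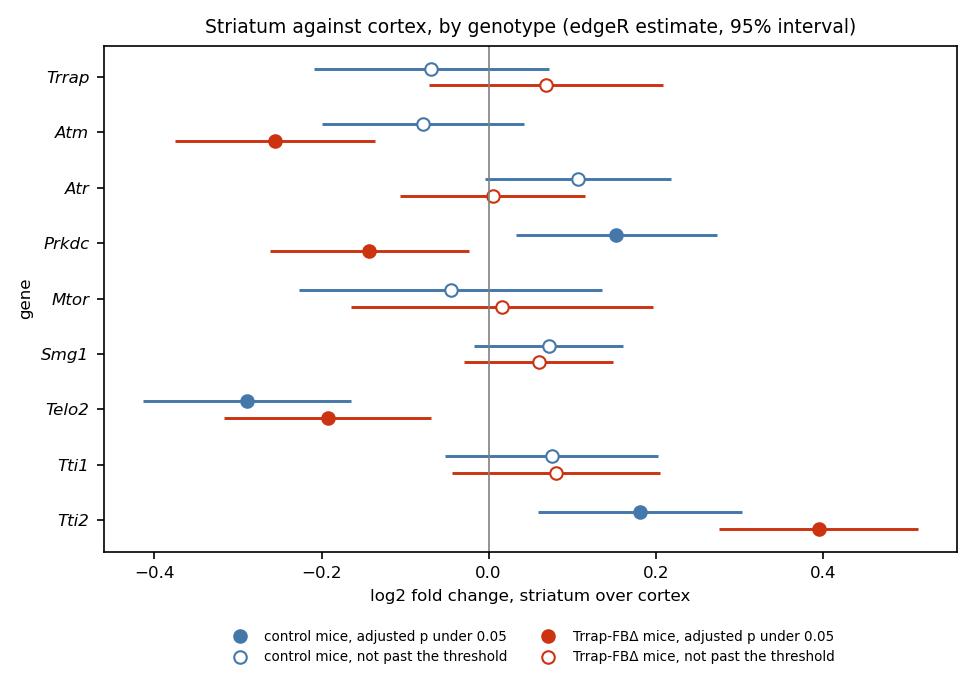
The log2 fold change of striatum over cortex (x axis) for each of the 9 genes (y axis) in control and in Trrap-FBΔ mice, as edgeR's estimate from all 16 libraries with its 95% interval; filled points have an adjusted p under 0.05. Telo2 lies left of 0 in both genotypes and Tti2 right of it, while Prkdc is at 0.15 in control mice and -0.14 in Trrap-FBΔ mice.

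Levels of different genes were compared as CPM per kilobase of all annotated exons of the gene. In control cortex the order was Mtor (11.4 ± 0.696 CPM per kilobase, n = 4), Smg1 (9.63 ± 0.187), Trrap (7.33 ± 0.748), Tti1 (4.36 ± 0.227), Telo2 (3.85 ± 0.207), Tti2 (3.18 ± 0.165), Atm (2.99 ± 0.198), Prkdc (2.89 ± 0.0994) and Atr (1.29 ± 0.0555). The ranges over the 4 libraries overlapped between Tti2 and Atm and between Atm and Prkdc, so the order of these neighbours is not resolved. Mtor, Smg1, Trrap and Tti1 held the first ranks in all 4 groups, and Atr the last, although Mtor and Smg1 overlapped in control striatum. In Trrap-FBΔ striatum Tti2 reached 5.07 ± 0.118 CPM per kilobase, above Telo2 (3.35 ± 0.165), while in control cortex it lay below Telo2. The exon length weighs on this order. Per kilobase of the longest transcript alone, 2 of the 9 genes kept their rank in control cortex, with Smg1 (14.8 ± 0.288) first, Mtor (13.5 ± 0.822) next and Atr at rank 7.

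**Figure D5:**
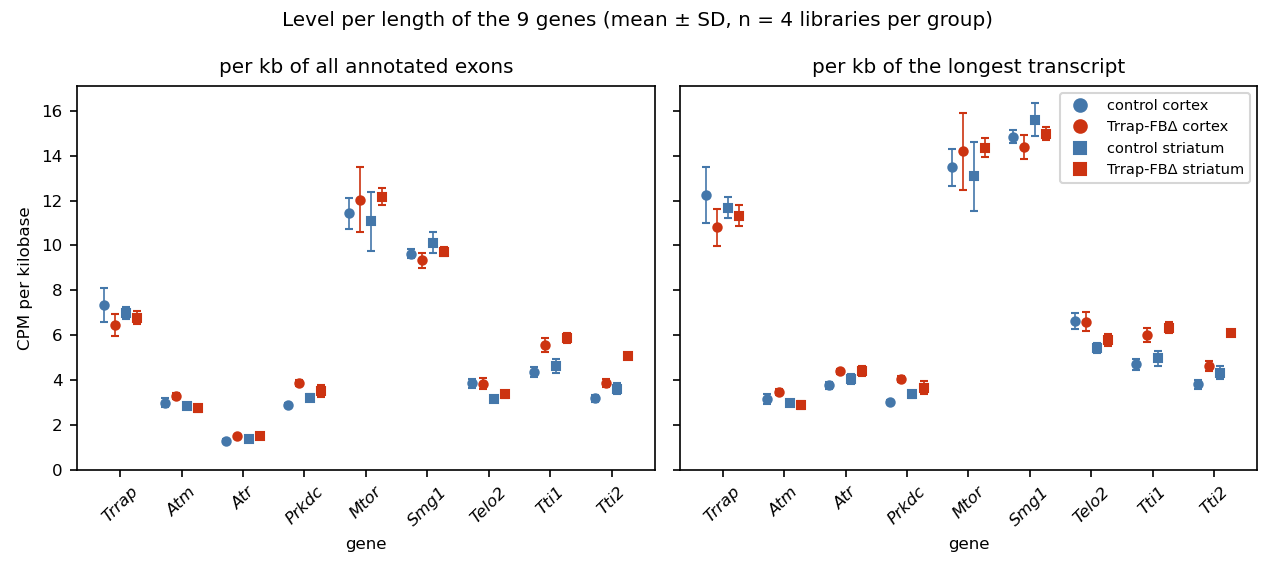
CPM per kilobase (y axis) of the 9 genes (x axis) in the 4 groups, as mean ± SD of 4 libraries, with all annotated exons as the length on the left and the longest transcript on the right. Mtor, Smg1 and Trrap stand above the other genes with either length, and Atr moves from 1.29 to 3.75 in control cortex with the change of length.

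The genes whose level followed that of Trrap most closely were found from the deviations of log2 CPM from the 4 group means, over 16 libraries and 19438 genes. They were Gpr173, an orphan receptor (Pearson r = 0.89), the cadherins Dchs1 (0.88) and Cdh4 (0.87), 4930432B10Rik (0.87) and Plxnb2, a semaphorin receptor (0.86). The level of 4930432B10Rik was low, with a mean of 0.425 CPM, against 30.0 to 85.9 CPM for the others. By Spearman correlation (0.67) 4930432B10Rik ranked 270. Without the libraries of control cortex mice 55 and 63, whose deviations of Trrap from the group mean lay farthest from the median deviation, r was 0.91 for Gpr173, 0.87 for Dchs1, 0.82 for Cdh4, 0.73 for 4930432B10Rik and 0.89 for Plxnb2. Among the other 8 PIKK and TTT genes r was highest for Mtor (0.53), followed by Telo2 (0.38), Prkdc (0.25), Tti1 (0.19), Tti2 (0.054), Atr (0.018), Atm (-0.12) and Smg1 (-0.16). Without the same 2 libraries Mtor stayed highest (0.66), but the order of the rest changed, with 0.30 for Tti1, 0.25 for Telo2, 0.21 for Tti2, 0.15 for Prkdc, 0.041 for Smg1, -0.015 for Atm and -0.40 for Atr. Mtor ranked 1290 among all genes by this measure. These values are descriptions over libraries that share mice, depth and dissection.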

How the data were processed

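The authors aligned single-end reads of poly(A) libraries, made with a stranded kit, to GRCm38 with STAR 2.5.4b and counted uniquely mapped reads per Ensembl gene with featureCounts 1.5.0 in its strand-specific mode. The deposited values are these raw counts, without normalization. Versions are those in the submitters' processing notes.

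Counts were tested in R 4.3.3 with edgeR 4.0.16 (quasi-likelihood test, TMM, filterByExpr), within the 8 libraries of a tissue for genotype and over all 16 libraries for tissue contrasts and interaction. Adjusted p is Benjamini-Hochberg over all genes tested, with a threshold of 0.05. CPM was scaled over all 16 libraries, and the deviations of log2 CPM used a prior count of 2. Single genes were also compared with an exact permutation test of mean CPM, 2-sided, over 70 divisions. DESeq2 1.42.0 and limma-voom (limma 3.58.1) were alternatives, beside another normalization, no filter, sex as a covariate, the mouse as a replicate block and each library left out. On simulated counts with 200 genes changed 1.5-fold, edgeR recovered 64.5% of them in the cortex design (18268 genes), with 8.51% of its calls false, and 58% in the striatum design (18872 genes), with 7.2% false. In the same cortex and striatum designs, 14.9% and 20.3% of DESeq2's calls were false. In the data 6090 genes were called in cortex and 5704 in striatum, so these shares of false calls need not hold there. For the difference between tissues only edgeR was simulated, and it recovered 45.5% with 0% of its calls false. The simulated libraries were drawn independently, whereas 7 mice gave both tissues, so these 2 values need not hold for the data.

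Exon lengths and overlaps are from GENCODE M21, of the same build as the counts. RefSeq promoter sequences were matched by symbol for 7 of the 9 genes, and Prkdc and Tti2 had no match. The genes and lists were chosen with earlier results of these data known. All 9 genes are named, and of each list the 3 genes with the smallest p per tissue among those past the threshold. The mice are separate animals, and the mouse number pairs a cortex with a striatum of the same animal. Over 18742 autosomal genes, deviations from the group means correlated at 0.0845 to 0.244 in 7 same-mouse pairs and at -0.173 to 0.123 in 25 pairs of different mice. No 2 libraries of a group agreed within sampling noise (chi-square per degree of freedom 7.56 to 40.4 in 24 pairs).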

Additional observations from a re-analysis of the deposited data

Results flagged for a closer look

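Mtor in control striatum had 1 library apart from the others. Mouse 63 was at 92.3 CPM and the other 3 libraries at 116 to 121 CPM, so that its gap was 0.83 of the range of the group, just above Dixon's 95% critical value for 4 samples. This was 1 of 36 groups tested, and chance alone flags about 1 in 20.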

How the results depend on the processing

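The members called in cortex (Atr, Prkdc, Tti1, Tti2) and striatum (Tti1, Tti2) kept direction and call under each of 15 alternatives per tissue. Leaving out single libraries gave 4 to 5 called members in cortex and 2 in striatum. In the difference between tissues, DESeq2 called 1 member (Prkdc) in place of 0. In control mice, striatum against cortex, the 3 called members became 5 with upper-quartile normalization, 1 with no filter on low counts, 1 with the mouse as a replicate block, and 1 to 3 without single libraries. That block changed no other call. Over the 24 alternatives, the control call was lost for Prkdc in 14 and for Tti2 in 6, and the Trrap-FBΔ call for Prkdc in 9. By the longest transcript 2 of 9 members kept their rank, and by Spearman correlation 2 of the 5 genes most like Trrap were the same. The values that changed sign all belonged to members not past the threshold. With upper-quartile normalization these were Telo2 in cortex (0.012), Smg1 in the difference between tissues (0.014) and Mtor in control mice, striatum against cortex (8.46e-05), and with the mouse as a replicate block Trrap in control mice (0.0099). Without single libraries the log2 fold change ranged from -0.041 to 0.028 for Telo2 in cortex. For the difference between tissues it ranged from -0.012 to 0.11 for Mtor, -0.029 to 0.029 for Smg1 and -0.025 to 0.043 for Tti1. For striatum against cortex it ranged from -0.092 to 0.033 for Mtor in control mice, and in Trrap-FBΔ mice from -0.042 to 0.029 for Atr and -0.055 to 0.068 for Mtor. The cause was not tested. The lowest count of a member, 471, carries a counting error of 4.61%, against a median spread within groups of 5.05%.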
